A study of Mus musculus with 17 samples.

Results

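The genes described here encode the oxidative phosphorylation machinery, followed in germinal centre (GC) B cells of the mouse. They were taken by gene symbol alone: the prefixes Ndufa, Ndufb, Ndufc, Ndufs, Ndufv, Uqcr, Cox4 to Cox8 and Atp5, the 4 genes Sdha to Sdhd, Cyc1, and every protein gene of mitochondrial DNA (prefix mt-), without pseudogenes. The rule found 110 of the 21848 genes in the deposited matrices. They comprise 89 subunits encoded in the nucleus, 13 subunits encoded by mitochondrial DNA, and 8 complex I assembly factors (Ndufaf genes) that share the prefix but are no subunits.

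The study asked when GC B cells mutate their antibody genes while they divide in bursts. B1-8hi B cells, whose antibody binds the hapten NP, were transferred into CD45.1/1 recipients that had been primed with ovalbumin (OVA), and all recipients were immunised in the footpad with NP-OVA on the next day. A minority of the transferred cells, of the B1-8hi tTA-H2B-mCherry line, carried the receptor DEC-205 (gene Ly75) and the remainder were Ly75-/-. The labels call the sequenced cells only lymph node GC B cells, and the study describes the cells of the time course, treated and untreated, as DEC-205+. Treated mice received anti-DEC-OVA on day 7, an antibody that carries OVA to DEC-205 and so makes these B cells present OVA to T follicular helper cells. Lymph node GC B cells were collected on day 7 (0 h, 9 mice), on day 9 without treatment (6 mice) or 48 h after it (9 mice), and on day 10 without treatment (8 mice) or 72 h after it (7 mice). These 39 mice were tagged with hashtag antibodies and sequenced in a larger pool of 25 mice and a smaller pool of 14 mice, each with all 5 conditions. In a separate experiment, B1-8hi GC B cells with the Rosa26 DHB-tdTomato reporter were taken 72 h after anti-DEC-OVA and sorted by image. The study's methods name such cells with or without H2B-GFP, a second transgene, and the labels do not say which mice carried it. The DHB-tdTomato reporter sits in the cytoplasm of cells with active CDK2, a kinase of the cell cycle, and in the nucleus of cells without it. Of 9 mice listed, 2 had no signal of their hashtag in either population, and cells with 1 unlisted hashtag were not assigned. Both populations of the same 7 mice remained, with 7448 cells in the CDK2-high pool and 4385 in the CDK2-low pool. Each population was a library of its own, so population and library cannot be told apart there.

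Oxidative phosphorylation takes place in the inner mitochondrial membrane. Complex I (NADH dehydrogenase) and complex II (succinate dehydrogenase) pass electrons to ubiquinone, complex III (cytochrome bc1) passes them to cytochrome c and complex IV (cytochrome c oxidase) to oxygen, while complex V (ATP synthase) uses the proton gradient to make ATP. Complexes I, III, IV and V mix subunits made from nuclear genes with subunits made from mitochondrial DNA. That DNA is transcribed by its own polymerase as long precursors that are cut into shorter RNAs. Complex II is wholly nuclear. B cells are known to raise respiration when they are activated and grow.

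The values are transcript counts (unique molecular identifiers, UMIs) from 5′ libraries, summed over the cells of a mouse and given as CPM, the share of that mouse's UMIs on the usual CPM scale, after trimmed mean of M values (TMM) scaling, called scaled CPM below. A molecule is counted once whatever its length, and no ranking of levels between genes is drawn. After filtering, 13625 cells of the larger and 10073 of the smaller pool remained, 292 to 1045 in a mouse, with 1984426 to 13373185 UMIs in all in a mouse. All 10 GC B cell markers were detected in every condition and summed to 5033 to 7716 scaled CPM, against 4.15 to 32.6 for 6 myeloid markers and 2.53 to 14.8 for 5 erythroid markers. Other sets were higher, at 53.7 to 185 for 6 T cell, 84.9 to 411 for 5 naive or memory B cell and 740 to 2387 for 6 plasma cell markers. The pools shared 5 to 43 cell barcodes pair by pair. The share of cells assigned to G1 by their transcripts was 16.3% to 24.2% in mice 48 h after anti-DEC-OVA and 45.3% to 56.9% in untreated mice at 48 h, and 12.2% to 19.3% in CDK2-high against 52.7% to 63.4% in CDK2-low populations. Phases were scored within each pool, and each CDK2 population is a pool of its own. 1 mouse of the 0 h group, in the larger pool, had 312 cells and a G1 share of 68.6%, against 38.9% to 51.3% in the other 5 of that pool.

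Of the 110 genes, 102 had enough counts to be tested in both experiments. The 8 that did not pass were mostly isoforms known from muscle, testis or hypoxic cells. Cox8c and Ndufb11b had 0 UMIs, and Cox7b2 had 2 in the time course. Cox8b, Ndufa4l2, Cox4i2 and Cox6a2 had 13, 27, 48 and 51 UMIs over all 39 mice, where their ubiquitous counterparts Cox8a, Ndufa4, Cox4i1 and Cox6a1 had 205469, 118816, 226415 and 162966. The eighth was a second gene model with the symbol Atp5o, with 137 UMIs. Among the tested isoforms, Cox7a1, the heart and muscle form, was listed at a median of 1.77 scaled CPM over the 9 mice at 0 h, and Cox6b2, the testis form, at a median of 3.34.

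The promoters of these genes are known for sites of NRF1, of ETS factors such as GABP, and of YY1. RefSeq promoter sequences of build GRCm38.p6, from 250 bases before to 50 after the start, were at hand for 70 of the nuclear subunits, and were searched on both strands for GCGCANGCG (NRF1), CCGGAAG (ETS) and AAGATGGCG (YY1). The NRF1 letters were in the promoters of 20 of the 70 genes (28.6%), and in 7.03% of all 27025 genes with a promoter in the table. The ETS letters were in 17 (24.3%, against 9.93% of all genes) and the YY1 letters in 7 (10%, against 1.64%). In all, 36 of the 70 (51.4%) held at least 1 of the 3, against 16.5% of all genes, and 34 held none. The 27025 genes were not limited to those expressed in these cells or to promoters of like base content. Whether the shares are particular to these subunits was therefore not tested. The ETS and YY1 letters can share the 3 letters AAG, which occurred in no promoter. A match is a string of letters, not a bound site. The stretches below come from 4 subunits whose transcripts are described further on, chosen to show each motif, and read 5′ to 3′ on the gene's own strand with the matched letters in capitals. They lie 190 bases (Ndufa5), 79 and 46 bases (Sdhd), 66 bases (Uqcr11) and 88 bases (Atp5j) before the start, all on the minus strand of GRCm38.p6. In Sdhd the ETS letters are on the opposite strand and so read as CTTCCGG.
Ndufa5, NRF1, chr6:24527698-24527726: tgtgtgagctGCGCAGGCGcaaatctacc
Sdhd, NRF1, chr9:50603910-50603938: tcgctggggtGCGCACGCGcggtggcagc
Sdhd, ETS, chr9:50603879-50603905: cgtctcctgcCTTCCGGttcacgcttc
Uqcr11, ETS, chr10:80406871-80406897: tctctcctccCCGGAAGtagatgtcaa
Atp5j, YY1, chr16:84835046-84835074: aagtgtaggaAAGATGGCGgagtcttagc

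The first comparison asked how the machinery differed 48 h after anti-DEC-OVA, during forced division. Nuclear subunits of all 5 complexes were higher in treated than in untreated mice, and no nuclear subunit was lower. In the larger pool the nuclear subunits summed to 23381, 23489, 23854 and 25466 scaled CPM in the 4 untreated mice, and to 27518 at the lowest, 28037 at the median and 28685 at the highest in the 6 treated mice. In the smaller pool the sums were 20336.5 and 20774 against 24965, 25847 and 25907. The ranges did not overlap in either pool, and the fitted difference of the sums was 0.25 on the log2 scale (19.3%), where mice of a condition and pool had a residual SD of 0.06. Relative to the 0 h mean of their pool, treated mice stood at 1.14 to 1.28 and untreated mice at 0.972 to 1.06. The 13 mitochondrially encoded subunits summed to 23197 to 24948 scaled CPM in treated and 24111 to 24804 in untreated mice of the larger pool, which overlapped, with a fitted difference of -0.03. Cells without a recovered B1-8hi receptor pair, which the study left out, are included in these values: 9219 of the 13625 cells of the larger pool and 4372 of the 10073 of the smaller had the pair. The share of cells with the pair was 70.5% to 77.7% in treated and 62.3% to 67.4% in untreated mice at 48 h in the larger pool. In the smaller pool it was 53.1% to 58.0% and 34.7% to 38.8%, so the groups were apart in both. With paired cells alone the difference of the nuclear sums at 48 h was 0.16, with 63 subunits called and 16.8% of all genes higher.

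**Figure D1:**
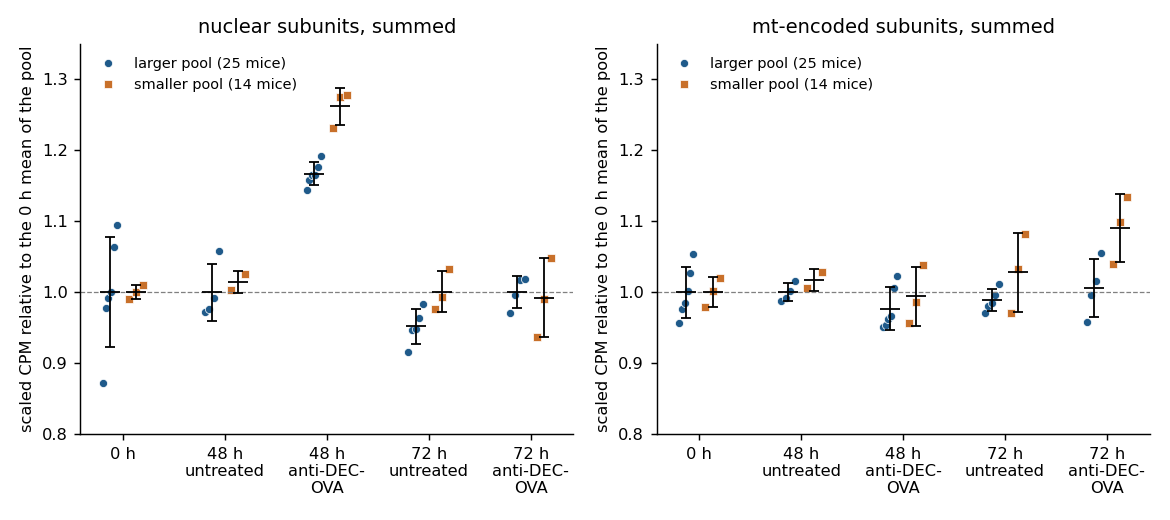
Summed scaled CPM of the nuclear subunits and of the mitochondrially encoded subunits in each of the 39 mice, divided by the 0 h mean of the mouse's pool (y axis), by condition (x axis); points are mice, coloured by pool, with the mean and SD of each pool. The nuclear sums of all 9 mice 48 h after anti-DEC-OVA lie at 1.14 or above, and those of untreated mice at 48 h between 0.972 and 1.06; the mitochondrially encoded sums overlap.

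By gene, 74 of the 81 nuclear subunits tested were higher at an adjusted p under 0.05 by edgeR and none was lower, where 26.3% of all 10220 genes were higher and 21.1% lower. The median log2 fold change was 0.26 over the 81 and 0.01 over all genes. In 63 of the 74 every treated mouse lay above every untreated mouse in both pools, as 14.2% of all genes did, while 8.84% of all genes had every treated mouse below. The nuclear medians of the 5 complexes lay between 0.22 and 0.35.

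In complex I, 35 of 37 nuclear subunits rose, with a median of 0.22. Ndufab1, the mitochondrial acyl carrier protein that is also a complex I subunit, read 157, 159, 172 and 195 scaled CPM in the untreated mice of the larger pool and 222, 235 and 243 (lowest, median, highest) in the treated. In the smaller pool it read 136 and 154 against 203, 206 and 207, so that the groups were apart in both pools (log2 fold change 0.47 ± 0.07 SE, edgeR adjusted p = 3.21e-07). Ndufa5, a subunit of the peripheral arm, rose by 0.38 ± 0.05 (edgeR adjusted p = 6.62e-08). Of the core subunits that carry the redox centres, Ndufv1, which binds NADH, rose by 0.34 and Ndufs1 by 0.21. Ndufa3 and Ndufa13 did not pass the test (0.05 and 0.06).

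All 4 subunits of complex II rose. Sdhd, a membrane anchor of the complex, read 88.2, 90.6, 91.3 and 108 scaled CPM in untreated mice of the larger pool and 121 to 141 with a median of 132 in the treated; in the smaller pool it read 77.0 and 79.9 against 103, 111 and 111. No treated mouse fell within the untreated range of its pool, and the log2 fold change was 0.47 ± 0.07 (edgeR adjusted p = 2.12e-07). The other anchor, Sdhc, rose by 0.37, and the catalytic subunits Sdha, which holds the flavin, and Sdhb, which holds the iron-sulphur clusters, rose by 0.19 and 0.32.

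In complex III, 7 of 9 subunits rose. Cyc1, the haem protein cytochrome c1, read 187, 189, 197 and 224 scaled CPM in untreated mice of the larger pool and 243 to 265 with a median of 259 in the treated (0.35 ± 0.06, edgeR adjusted p = 3.18e-06). Uqcr11 rose by 0.34 and the Rieske protein Uqcrfs1 by 0.31. Uqcrq and Uqcrh, small subunits of the same complex, did not pass the test, at -0.05 and 0.06.

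In complex IV, 11 of 14 tested subunits rose. Cox7a2, a small subunit in its ubiquitous form, read 353, 361, 368 and 379 scaled CPM in untreated mice of the larger pool and 442 to 472 with a median of 464.5 in the treated; in the smaller pool it read 304 and 333 against 429, 431 and 434. The groups were apart in both pools (0.37 ± 0.04, edgeR adjusted p = 1.49e-08), and Cox6a1 rose by the same 0.37. The 3 that did not pass were the isoforms Cox6b2 and Cox7a1, with few counts, and Cox7a2l, at -0.00. Cox7a2l, also called Scaf1, is described as a factor that joins complexes III and IV into a supercomplex, rather than a subunit of the oxidase alone. Whether its protein does so in these mice was not examined.

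In complex V all 17 subunits rose, with a median of 0.30. Atp5b, the catalytic beta subunit of the F1 head, read 617, 640, 670 and 769 scaled CPM in untreated mice of the larger pool and 835 to 895 with a median of 867 in the treated, and 550 and 565 against 756, 761 and 774 in the smaller pool (0.39 ± 0.05, edgeR adjusted p = 1.47e-07). Atp5g1, Atp5g2 and Atp5g3 encode the same mature c-ring protein from separate genes, and rose by 0.30, 0.27 and 0.36. Atp5e rose least, by 0.10. Of the 8 Ndufaf assembly factors, Ndufaf2 (0.44 ± 0.08) and Ndufaf6 (0.32 ± 0.10) passed the test, a share near the 26.3% of all genes that were higher, and the median over the 8 was 0.13.

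**Figure D2:**
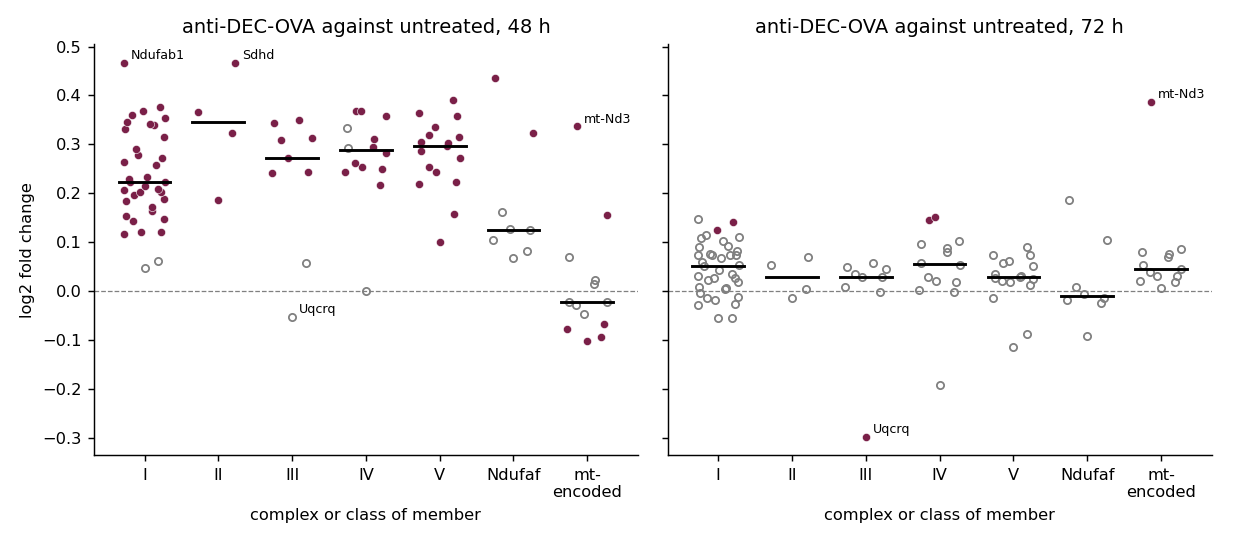
Log2 fold change of each tested gene (y axis) in treated against untreated mice, by complex (x axis), at 48 h on the left and at 72 h on the right; filled points passed an edgeR adjusted p of 0.05, open points did not, and bars are medians. At 48 h the medians of the nuclear complexes lie between 0.22 and 0.35, and at 72 h between 0.03 and 0.05.

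Treated mice at 48 h also had fewer cells in G1 and more UMIs per cell. In the larger pool, nuclear subunits gave 418 ± 21.7 UMIs per cell (SD, n = 6) in treated and 210 ± 26.7 (SD, n = 4) in untreated mice, mitochondrially encoded subunits 355 ± 18.1 and 213 ± 16.7, and all genes together 15843 ± 724 and 8911 ± 862. Both sets of subunits therefore had more UMIs per cell after treatment, and the nuclear ones also took a larger share of them. When the counts were summed over G1 cells only, 21 of the 79 nuclear subunits tested were higher and none lower (4.51% of all genes higher), all 21 among the 74 above, and the difference of the sums was 0.12. Over S and G2M cells only, 60 were higher and 1 lower (9.81% of all genes higher), with a difference of the sums of 0.16. The summed plasma cell markers were 1210 to 2039 scaled CPM in treated and 740 to 1527 in untreated mice, and the naive or memory B cell markers 84.9 to 182 and 204 to 343, over both pools; their part in the result was not tested.

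At 72 h the nuclear subunits of treated and untreated mice were close. The sums were 23345 to 24484 scaled CPM in 4 treated and 22036 to 23650 in 5 untreated mice of the larger pool, and 18990 to 21242 against 19776 to 20929 in the smaller pool, which overlapped in both. The fitted difference was 0.04, and the median over the 81 nuclear subunits was 0.03. Only 4 nuclear subunits were higher (4.67% of all genes were) and 1 was lower (3.88% of all genes), so the share higher (4 of 81) was near that of all genes. The 4 were Ndufb1 (0.14), Ndufb7 (0.12), Cox6b1 (0.15) and Cox7a2l (0.15), whose treated and untreated ranges were apart in the larger pool and overlapped in the smaller. With the 0 h mouse that stood apart left out of the fit, 8 nuclear subunits were called in place of 5, where 5.15% of all genes were higher and 4.03% lower; within G1 cells 17 were higher and none lower (3.97% of all genes higher), with a difference of the sums of 0.13.

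The single nuclear subunit that was lower at 72 h was Uqcrq, the ubiquinone-binding small subunit of complex III (ENSMUSG00000044894, chr11:53318749-53322047, minus strand, GRCm39). In the larger pool it read 320, 323, 324, 340 and 353 scaled CPM in untreated mice and 258, 267, 274 and 285 in treated mice. In the smaller pool it read 321, 325 and 340 against 248, 265 and 281. Every treated mouse was below every untreated mouse of its pool, as for 1.10% of all genes. The log2 fold change was -0.30 ± 0.05 (edgeR adjusted p = 5.48e-05). It was -0.29 in the larger and -0.32 in the smaller pool, where the adjusted p on that pool alone was 0.0585, and it was -0.38 in S and G2M cells and -0.10 in G1 cells, where it did not pass (adjusted p = 0.348). The gene shares 198 bases with Gdf9 on the opposite strand. At 48 h Uqcrq had not differed between the groups beyond the spread of the mice (317 to 353 against 334 to 383 scaled CPM in the larger pool), while its complex III neighbours Cyc1, Uqcr11 and Uqcr10 were higher.

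From 48 h to 72 h after anti-DEC-OVA the nuclear subunits fell together. Of 81, 74 fell and none rose, where 26.8% of all genes fell and 22.3% rose, and the median was -0.27. In 64 of them every mouse at 72 h lay below every mouse at 48 h in both pools, as for 14.8% of all genes, while 7.73% of all genes had every mouse above. Every nuclear complex II and complex V subunit fell, 34 of 37 in complex I, 8 of 9 in complex III and 11 of 14 in complex IV. Sdhd fell by 0.56 on the log2 scale, from 121 to 141 scaled CPM at 48 h to 86.9, 89.7, 90.9 and 97.4 at 72 h in the larger pool. Ndufab1 fell by 0.53, Atp5g1 by 0.50, Atp5b by 0.42, Ndufb6, a membrane arm subunit of complex I, by 0.42, Sdhc by 0.42, Cox7a2 and Uqcr11 by 0.39, Cox8a by 0.37 and Cyc1 by 0.36. Uqcrq, which had not been higher at 48 h, fell by 0.29. These mice are the treated mice of the 2 comparisons above, so the values are no independent evidence. The plasma cell markers summed to 1210 to 2039 scaled CPM at 48 h and 843 to 1218 at 72 h, and the naive or memory B cell markers to 84.9 to 182 and 171 to 297; their part in the fall was not tested.

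The change of the treatment effect itself was tested as an interaction. It was lower at 72 h than at 48 h for 60 of 81 nuclear subunits and higher for none (18.5% of all genes lower, 13.0% higher), with a median of -0.23 and a difference of -0.22 for the sums. By complex these were 22 of 37 in complex I, 4 of 4 in complex II, 8 of 9 in complex III, 10 of 14 in complex IV and 16 of 17 in complex V. The values were -0.52 for Ndufab1, -0.48 for Sdhd, -0.41 for Atp5g1, -0.40 for Ndufa5, -0.36 for Atp5g2, -0.34 for Cox7a2 and -0.32 for Cyc1. The count was lower in parts of the data, where fewer of all genes were called too: 12 subunits were called in the larger pool alone (10.3% of all genes lower), 28 in the smaller alone (4.16%), 21 in S and G2M cells (6.32%) and 0 in G1 cells (2.01%), where the difference of the sums was 0.01. It was -0.12 in the larger pool and -0.31 in the smaller. With B1-8hi-paired cells alone 16 subunits were called (9.12% of all genes lower, difference of the sums -0.12), with cells thinned to equal depth 22 (9.31%), and without a term for the pool 20 (7.67%). Without TMM factors 41 were called (12.3%), with a difference of the sums of -0.14. The fall from 48 h to 72 h likewise left 1 called subunit in G1 cells (4.04% of all genes lower, difference of the sums -0.04) and 69 in S and G2M cells (15.9%, -0.21).

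Without treatment the machinery moved little in the same 72 h. Between 0 h and untreated 72 h, 0 of the 94 subunits passed the test by edgeR or by DESeq2 (1.79% of all genes rose and 2.62% fell by edgeR). At an unadjusted p under 0.05 by edgeR, 16 nuclear subunits were lower and none higher, and mt-Nd1 was higher (0.09). The share of all genes at that unadjusted threshold was not determined, so these counts are not read as a result. The difference of the nuclear sums was -0.04 and of the mitochondrially encoded sums 0.00. Without the 0 h mouse that stood apart 1 nuclear subunit was called (2.33% of all genes higher and 1.78% lower), and 3 were lower in G1 cells (0.923% of all genes), where the difference of the nuclear sums was -0.11.

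The 13 subunits encoded by mitochondrial DNA did not follow the nuclear ones. At 48 h 2 of 13 were higher and 4 lower after treatment (26.3% and 21.1% of all genes), with a median of -0.02: mt-Nd3 (0.34 ± 0.06) and mt-Nd2 (0.16 ± 0.05) of complex I were higher, and the complex IV subunits mt-Co1, mt-Co2 and mt-Co3 were lower by -0.08, -0.07 and -0.09, as was mt-Atp8 of complex V by -0.10. From 48 h to 72 h after treatment, mt-Co1, mt-Co2, mt-Co3, mt-Cytb, mt-Atp8, mt-Nd4l and mt-Nd5 rose by 0.08 to 0.15 and mt-Nd2 fell by 0.12 (22.3% of all genes higher, 26.8% lower). None of the 13 was called in G1 cells (1.23% and 4.04% of all genes) or without a term for the pool (12.3% and 18.1%), and 7 rose and none fell in S and G2M cells (17.6% and 15.9%). The interaction was called for mt-Atp8 (0.18), mt-Co3 (0.16), mt-Cytb (0.13), mt-Co1 (0.12) and mt-Co2 (0.11), so that 5 of 13 were higher and none lower (13.0% and 18.5% of all genes), where no nuclear subunit was higher. None of them was called in G1 cells, in the smaller pool alone or without a term for the pool (0.912%, 3.27% and 4.29% of all genes higher); with cells under 5% mitochondrial UMIs 2 were higher and 1 lower, near the shares of all genes (12.7% and 14%), and in S and G2M cells 3 were higher and none lower (6.42% and 6.32%). The cell filter removed cells with 10% or more of their UMIs from mitochondrial DNA and so acts on these genes. Without it 1 was higher and 4 were lower at 48 h (24.9% and 23.4% of all genes). With cells under 5% only, 2 were higher and 2 lower (21.5% and 20.8%). In G1 cells 1 was higher and none lower (4.51% and 4.42%), as in S and G2M cells (9.81% and 10.6%). None was called in the smaller pool alone (10.7% and 10.1%) or without a term for the pool (15.5% and 10.8%). Without TMM factors 1 was higher and 7 were lower (18.5% and 30.1%).

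The ratio of mitochondrially encoded to nuclear subunit UMIs was lower after treatment at 48 h. In the larger pool it was 0.947 to 1.04 in untreated mice at 48 h and 0.830 to 0.882 in treated mice, and in the smaller pool 1.99 and 2.07 against 1.52, 1.57 and 1.71, so that the groups were apart in both. At 72 h it was 1.02 to 1.09 against 0.955 to 1.10 in the larger pool and overlapped. The pools differed in level: at 0 h the 13 genes stood at a median of 1.77 times the larger pool's level in the smaller pool, from 1.15 for mt-Atp6 to 3.84 for mt-Atp8, where the nuclear subunits stood at a median of 0.833. Pool is a term of the time course fits above, and the levels of the subunits are compared within a pool.

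mt-Nd3 was the single mitochondrially encoded subunit that was higher at both times (ENSMUSG00000064360, chrM:9459-9806, plus strand, GRCm39). At 48 h it read 125, 131, 133 and 136 scaled CPM in untreated and 168, 173 and 184 (lowest, median, highest) in treated mice of the larger pool, and 375 and 380 against 413, 418 and 462 in the smaller pool. At 72 h it read 117, 117, 128, 129 and 136 in untreated and 169, 169, 171 and 183 in treated mice of the larger pool, and 362, 384 and 419 against 444, 478 and 503 in the smaller. All treated mice lay above all untreated mice of their pool and time, as did 14.2% of all genes at 48 h and 0.910% at 72 h. The fold change at 72 h was 0.39 ± 0.06 (edgeR adjusted p = 7.27e-06), its interaction was not called (0.05 ± 0.08, adjusted p = 0.676), and it passed in G1 cells at both times (0.29 and 0.34). In the smaller pool alone it was 0.16 at 48 h (adjusted p = 0.194) and 0.28 at 72 h (adjusted p = 0.204), past the threshold at neither time.

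**Figure D3:**
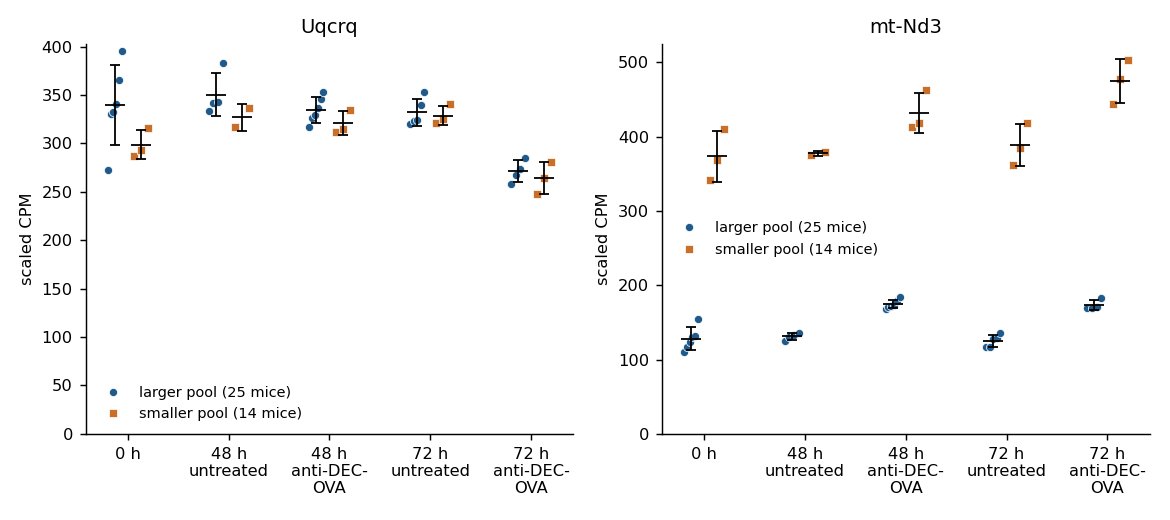
Scaled CPM (y axis, from 0) of Uqcrq and mt-Nd3 in each of the 39 mice by condition (x axis), coloured by pool, with the mean and SD of each pool. Uqcrq lies at 248 to 285 in the 7 mice 72 h after anti-DEC-OVA and at 320 to 353 in untreated mice at 72 h; mt-Nd3 lies higher in treated mice at both times within each pool.

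The CDK2 experiment compared GC B cells with and without active CDK2 from the same mice 72 h after anti-DEC-OVA. For this comparison the study used cells with dark zone transcripts. Cells were not separated by zone here, and the part of zone in the differences was not tested. Nuclear subunits were higher in the CDK2-high population in all 5 complexes. They summed to 26780.4, 28823 and 29925 scaled CPM (lowest, median, highest of 7 mice) in CDK2-high and to 17997, 20469 and 21285 in CDK2-low populations, with no overlap, and the difference of the sums was 0.51 (42.4%; residual SD 0.03). Of 81 nuclear subunits 78 were higher and 1 lower by edgeR with a term for the mouse, where 36.5% of all 10120 genes tested were higher and 38.6% lower. The median was 0.50, against -0.02 over all genes. In 72 of the 78 all CDK2-high values lay above all CDK2-low values, where 22.5% of all genes were so placed and 17.4% the other way. The libraries differed in depth. A CDK2-high cell gave 291 ± 29.4 nuclear subunit UMIs of 10973 ± 739 in all (SD, n = 7), and a CDK2-low cell 286 ± 42.3 of 13409 ± 1270. Per cell, the nuclear subunit UMIs overlapped between the populations, at 252 to 337 and 231 to 343.

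In complex I, 36 of 37 subunits were higher. Ndufa5 read 130, 140 and 156 scaled CPM in CDK2-high and 66.6, 76.6 and 85.3 in CDK2-low populations (lowest, median, highest), a log2 fold change of 0.87 ± 0.04 (edgeR adjusted p = 1.82e-17, higher in 7 of 7 mice). Ndufb6 was higher by 0.80 and Ndufv1 by 0.65, while the core subunit Ndufs1 was higher by 0.14. In complex II, Sdhd was higher by 0.69 and Sdhc by 0.58, and the catalytic Sdhb and Sdha by 0.38 and 0.28.

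All 9 subunits of complex III were higher. Uqcr10 was higher by 0.77 and Uqcr11 by 0.71, and Uqcrq, at 314, 316 and 343 scaled CPM against 199, 221 and 245, by 0.56 ± 0.03. The 7 mice had all been treated 72 h before, the time at which Uqcrq was lower than in untreated mice. In complex IV, Cox7a2 read 426, 453 and 489 in CDK2-high and 218, 257 and 279.8 in CDK2-low populations (0.84 ± 0.03, edgeR adjusted p = 9.52e-20), and Cox8a was higher by 0.80. Cox7a2l was the single nuclear subunit that was lower, at 497, 538 and 562 against 541, 597 and 636, by -0.14 ± 0.02 and in 7 of 7 mice, although the ranges overlapped. In G1 cells it was at 0.03 and did not pass (edgeR adjusted p = 0.547). This gene shares 21825 bases with Eml4 on the opposite strand, and 11703 and 1430 bases with the noncoding genes Gm65874 and Gm66622 on its own strand.

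All 17 subunits of complex V were higher, by 0.33 to 0.81. Atp5g3 read 1000 to 1194 scaled CPM in CDK2-high and 528 to 701 in CDK2-low populations (0.81 ± 0.02, edgeR adjusted p = 3.68e-21), and Atp5j, a stalk subunit, was higher by 0.77. The other genes for the c-ring, Atp5g2 and Atp5g1, were higher by 0.58 and 0.47. Of the Ndufaf assembly factors, 4 of 8 were higher (36.5% of all genes), with Ndufaf2 at 0.87 and Ndufaf6 at 0.33, and the median over the 8 was 0.10.

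**Figure D4:**
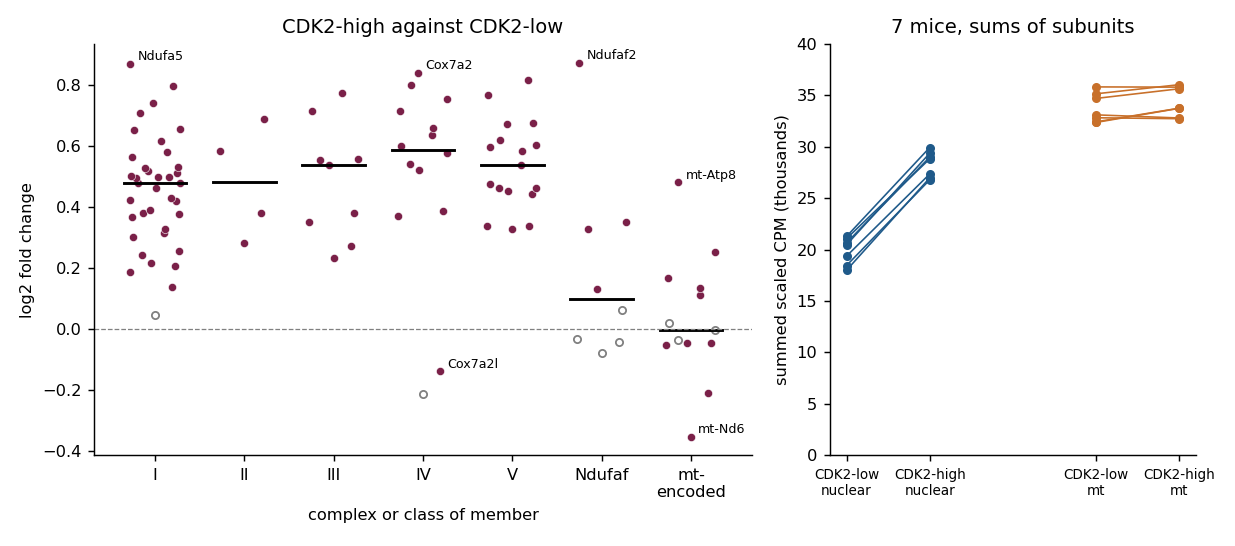
Left, log2 fold change of each tested gene in CDK2-high against CDK2-low populations (y axis) by complex (x axis), with filled points past an edgeR adjusted p of 0.05, open points not past it and medians as bars; right, summed scaled CPM, divided by 1000 (y axis, from 0) of nuclear and mitochondrially encoded subunits, with lines joining the 2 populations of each of the 7 mice. The nuclear sums lie at 17997 to 21285 in CDK2-low and 26780.4 to 29925 in CDK2-high populations, and the mitochondrially encoded sums overlap; mt-Nd1, mt-Nd3, mt-Co2 and mt-Atp6 change sign without TMM factors.

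Over G1 cells only, 78 nuclear subunits were higher and none lower (30.6% of all genes higher) and the difference of the sums was 0.68. Over S and G2M cells only, 75 were higher and 1 lower (30.2% and 32.9% of all genes) and the difference was 0.37. Phase was scored within each population by itself, so these subsets do not hold the phase equal between the populations. The 10 GC B cell markers summed to 6479.7 to 6872 scaled CPM in CDK2-high and 5033 to 5615 in CDK2-low populations and so lay apart in the same direction as the nuclear subunits. Plasma cell markers summed to 936 to 1173 and 790 to 1037, which overlapped, naive or memory B cell markers to 91.5 to 169 and 283 to 411, and 6 T cell markers to 56.3 to 69.4 and 128 to 185; their part in the result was not tested.

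The sums of the mitochondrially encoded subunits in the CDK2 comparison were 32733 to 36041 scaled CPM in CDK2-high and 32369 to 35826 in CDK2-low populations and overlapped (difference 0.02). Per cell these subunits gave 332 to 368 UMIs in CDK2-high and 442 to 529 in CDK2-low populations, with no overlap. All genes together gave 9885 to 12147 and 11671 to 15157 UMIs per cell, so the scaled and per-cell values differ in what they show. By gene, 5 of 13 were higher and 5 lower, near the shares of all genes (36.5% and 38.6%). mt-Atp8 was higher by 0.48 ± 0.02 (1566 to 1754 against 1122 to 1268 scaled CPM) and mt-Nd2 by 0.25 ± 0.02. mt-Nd6, the one protein gene on the minus strand of mitochondrial DNA, was lower by -0.35 ± 0.04 (27.7 to 36.7 against 38.1 to 43.3), and mt-Nd4l by -0.21 ± 0.02. All 4 had the same sign in 7 of 7 mice. mt-Nd3 (0.17), mt-Nd1 (0.13) and mt-Co2 (0.11) were higher with TMM scaling and changed sign without it, at -0.03, -0.06 and -0.08. Without TMM factors the median of all genes moved from -0.02 to -0.22, 2 mitochondrially encoded subunits were higher and 10 lower (23.8% and 57.5% of all genes), and their summed difference was -0.17, while the nuclear sums still differed by 0.31 with 74 subunits called. In G1 cells 1 was higher and 10 were lower (30.6% and 31% of all genes; -0.19 for the sums), and in S and G2M cells 7 were higher and 2 lower (30.2% and 32.9%; 0.09 for the sums). mt-Atp8 shares 43 bases with mt-Atp6 and mt-Nd4l shares 7 with mt-Nd4 on the same strand, so reads in these bases fit 2 genes. Whether the 2 genes of such a pair are read from 1 RNA was not examined, so their values may not measure separate transcripts. At 0 h the smaller pool stood at 3.84 times the larger pool's level for mt-Atp8 and 1.15 times for mt-Atp6. These were 2.72 for mt-Nd4l and 1.54 for mt-Nd4, so such neighbours differed between libraries by unlike amounts. In the CDK2 comparison library and population cannot be told apart. mt-Nd6 shares 14 bases with mt-Nd5 on the opposite strand.

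**Figure D5:**
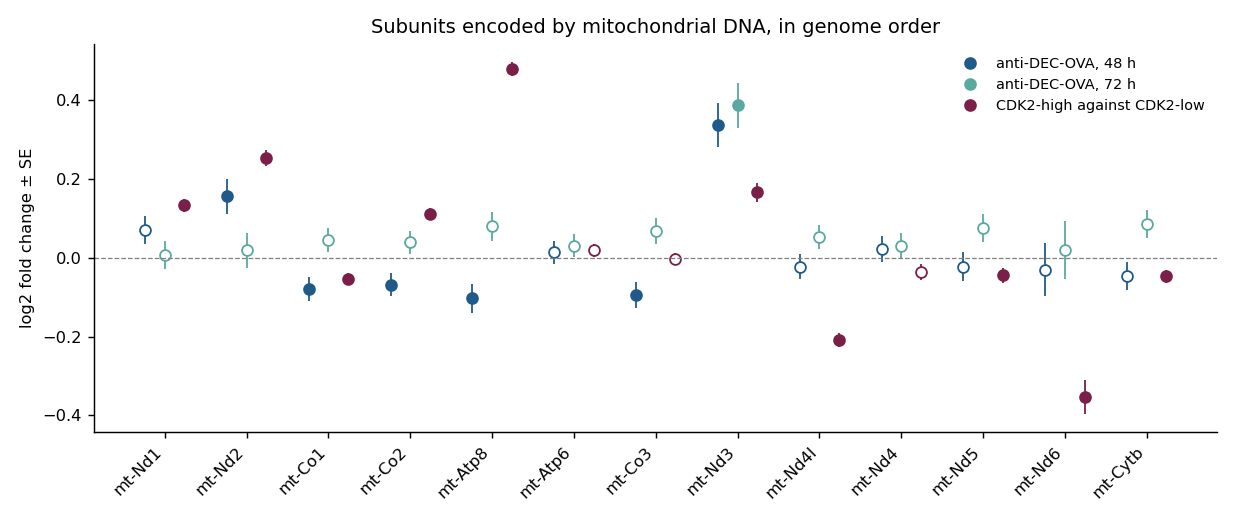
Log2 fold change with SE (y axis) of the 13 mitochondrially encoded subunits in the order of the mitochondrial genome (x axis), for treated against untreated mice at 48 h and 72 h and for CDK2-high against CDK2-low populations. mt-Nd3 lies at 0.34 and 0.39 after treatment, mt-Atp8 at 0.48 and mt-Nd6 at -0.35 in the CDK2 comparison; in that comparison mt-Nd1, mt-Nd3, mt-Co2 and mt-Atp6 change sign without TMM factors.

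Genes around the respiratory chain were taken from lists of assembly, transcription, import and fuel supply; the complex I assembly list holds the Ndufaf genes above. At 48 h, 4 of 15 complex I assembly factors, 11 of 30 assembly factors of complexes II to V, 10 of 27 genes of mitochondrial transcription and RNA processing, 18 of 23 genes of the TCA cycle and pyruvate entry, 11 of 23 electron and inner membrane carriers, 15 of 20 cristae and import genes and 1 of 10 genes of mitochondrial dynamics and mitophagy were higher in treated mice. In the same lists 0, 1, 1, 0, 2, 0 and 0 were lower. Of all genes 26.3% were higher and 21.1% lower, and the share of complex I assembly factors higher was near that of all genes. The medians were 0.12, 0.13, 0.15, 0.20, 0.17, 0.30 and -0.06. The genes with the largest changes included Idh2 and Mdh2, dehydrogenases of the TCA cycle (0.58 and 0.44), Vdac1, the outer membrane channel (0.54), the cristae protein Apoo (0.45), Slc25a13, an aspartate and glutamate carrier (0.48), Etfa, an electron transfer flavoprotein (0.43), Tfb1m, which methylates mitochondrial ribosomal RNA (0.45), and Cox19, a copper protein of complex IV assembly (0.38).

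Of 8 listed regulators known to act on respiratory genes, 7 were tested. Gabpa, the DNA-binding subunit of GABP, was higher at 48 h (0.20, adjusted p = 0.00852) and Esrra lower (-0.24, adjusted p = 0.0305) by edgeR. Nrf1, Yy1, Gabpb1, Pprc1 and Ppargc1b were at -0.01, 0.00, -0.11, 0.13 and 0.04 and did not pass. So 1 of 7 was higher and 1 lower, where 26.3% of all genes were higher and 21.1% lower. At 72 h 0 of 7 were called between treated and untreated mice (4.67% and 3.88% of all genes). In CDK2-high populations Gabpa (0.35), Yy1 (0.14) and Nrf1 (0.12) were higher and Esrra (-0.47) and Pprc1 (-0.39) lower (36.5% of all genes higher and 38.6% lower). From 48 h to 72 h Gabpa and Pprc1 fell by 0.15 and 0.41 and Esrra rose by 0.46 (26.8% of all genes fell and 22.3% rose). With so few genes, none of these counts is read as a result about the regulators.

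At 72 h these lists held few calls between treated and untreated mice: Cox17 (0.19) and Cox16 (0.17) of complex IV assembly, Fh1 (0.17) and Vdac2 (0.14) were higher, and Suclg2 (-0.34) of the TCA cycle and 1 assembly factor were lower. Of all genes 4.67% were higher and 3.88% lower, so calls were few over all genes too. From 48 h to 72 h after treatment 7 of 15, 10 of 30, 11 of 27, 16 of 23, 11 of 23, 16 of 20 and 2 of 10 genes of the same 7 lists fell and 0, 1, 0, 0, 4, 0 and 2 rose, where 26.8% of all genes fell and 22.3% rose, with Vdac1 at -0.61, Tfb1m at -0.54, Coq7, an enzyme of ubiquinone synthesis, at -0.53, Cycs, cytochrome c, at -0.51 and Tfam, which packs mitochondrial DNA, at -0.38. In CDK2-high populations 7, 14, 9, 16, 15, 17 and 1 genes of those lists were higher and 0, 4, 8, 2, 6, 1 and 5 lower, where 36.5% of all genes were higher and 38.6% lower; neither count for mitochondrial transcription was above those shares. Tfb1m, Coq7 (0.90), Apoo (0.89), Micos10 of the cristae junctions (0.81), Slirp, which binds mitochondrial RNA (0.71), and Cycs (0.69) were among the higher, and the autophagy receptor Sqstm1 (-0.38) among the lower. In the interaction 2, 5, 7, 11, 8, 12 and 0 of the lists were lower and 0, 0, 0, 0, 3, 0 and 1 higher (18.5% and 13.0% of all genes), with Idh2 at -0.61. Between 0 h and untreated 72 h Cox17 (-0.17) and Fh1 (-0.20) fell and Suclg2 rose (0.41), where 2.62% of all genes fell and 1.79% rose.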

How the data were processed

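The gene expression matrices, hashtag matrices and feature lists of 4 pools were used. The deposited values are raw counts of UMIs per gene and cell, made by the authors with Cell Ranger on the mm39 reference, and the version was 8.0.1 in the study's methods and 6.0.1 in the labels' processing notes. The deposited list of hashtags, a table of other values that are names and not measurements, gave each mouse its condition, since the labels name pools. The other pools were not used here. Hashtag cutoffs came from Seurat 5.3.0 (HTODemux, positive quantile 0.99). A cell was assigned to a mouse if its hashtags above the cutoffs were exactly those listed for that mouse, and all other cells were left out. The minimum was 200 genes in a cell with a mitochondrial share of its UMIs below 10% (this limit removed 332 cells of the larger and 3036 of the smaller pool). Raw counts were summed per mouse and tested with edgeR 4.0.16 (quasi-likelihood, TMM, Benjamini-Hochberg over all genes that passed filterByExpr), with terms for condition and pool in the time course and for population and mouse in the CDK2 experiment. Both populations carry the hashtags of the same 7 mice in the deposited list, so the mouse is the block. Log2 fold changes are given with their SE. Sums and per-mouse values use CPM of TMM-scaled totals. P-values measure the spread between mice, which are the replicates. The fits and calls were tested on simulated counts in which a small share of genes was changed, as many up as down. Larger shares were called in the data, so that test does not cover the TMM scaling of such data. Alternatives were DESeq2 1.42.0, other filters, scalings and cell subsets; scaling without TMM factors and leaving out 1 mouse at 0 h were chosen after seeing the data. Named were all mitochondrially encoded subunits, the 2 largest called changes per complex and comparison at an average log2 CPM above 4 with the same sign in both pools or every mouse, isoform families, the 2 largest per pathway list, and all regulators. Other subunits named in the text were chosen after their values were seen. The members and lists were chosen with earlier results of these data known. The untreated mice, and the treated mice at 48 h and 72 h, are shared between comparisons.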

Additional observations from a re-analysis of the deposited data

Results flagged for a closer look

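In the 0 h group, 1 mouse of the larger pool, at 20971 scaled CPM for the summed nuclear subunits, was the lowest of the 9 mice relative to the mean of its pool, and its gap to the next mouse (0.500 of the range on the log2 scale) passed Dixon's 95% value for 9 values. Over the 6 mice of its pool alone the gap does not pass, and in scaled CPM itself the 3 mice of the smaller pool were lower. This is the mouse with 312 cells and a G1 share of 68.6%. Chance gives such a gap in about 1 in 20 groups, and 14 groups were examined.

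The treatment effect differed between 72 h and 48 h, by the interaction term in edgeR, for 65 of the 94 subunits tested (13.0% of all genes were higher and 18.5% lower). The differences were -0.52 for Ndufab1, -0.40 for Ndufa5, -0.48 for Sdhd, -0.30 for Sdhc, -0.32 for Cyc1, -0.29 for Uqcr11, -0.34 for Cox7a2, -0.29 for Cox8a, -0.41 for Atp5g1 and -0.36 for Atp5g2. They were 0.18 for mt-Atp8, 0.12 for mt-Co1, 0.11 for mt-Co2, 0.16 for mt-Co3 and 0.13 for mt-Cytb.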

How the results depend on the processing

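The nuclear sums at 48 h, from 48 h to 72 h and in the CDK2 comparison kept their direction under every alternative run, and 52 or more nuclear subunits were called in each except within G1 cells, where 21 were called at 48 h (4.51% of all genes higher) and 1 from 48 h to 72 h (4.04% lower). Outside G1 cells, 9.81% to 26.3% of all genes were higher at 48 h, 13.4% to 26.8% lower from 48 h to 72 h, and 23.8% to 36.5% higher in the CDK2 comparison. Per gene, 1704 values for named genes kept their direction and side of the threshold, 167 lost their call, 27 gained one and 16 reversed. Within G1 cells, 21 nuclear subunits were called at 48 h (sum 0.12) and 17 at 72 h (0.13, mitochondrially encoded sum -0.014). Of all genes 4.51% were higher and 4.42% lower at 48 h, and 3.97% and 5.09% at 72 h. There were 0 calls for the interaction (sum 0.0085) and 3 for untreated mice (sums -0.11 and 0.054). Of all genes 0.912% were higher and 2.01% lower in the interaction, and 1.29% and 0.923% in untreated mice. The sums from 48 h to 72 h were -0.040 and 0.026, and the CDK2 sums 0.68 and -0.19. Reversed in G1 cells were Cyc1 (0.069), Ndufab1 (0.0098) and Uqcr11 (0.0083) from 48 h to 72 h, Cyc1 in the interaction (0.091), and mt-Atp6 (-0.23), mt-Co2 (-0.11), mt-Nd1 (-0.068) and mt-Nd3 (-0.012) in the CDK2 comparison. In S and G2M cells, the 48 h sum was 0.16. There 1 subunit was called at 72 h (3.97% of all genes higher, 3.42% lower) and 21 for the interaction (6.42%, 6.32%). The CDK2 sums were 0.37 and 0.091, and mt-Co1 (0.034), mt-Co3 (0.068), mt-Cytb (0.021) and mt-Nd5 (0.041) reversed in that comparison. Without TMM factors the nuclear sums were 0.18 (48 h), -0.17 (48 h to 72 h), -0.14 (interaction) and 0.31 (CDK2), and the mitochondrially encoded sums -0.11, 0.18, 0.17 and -0.17. There 10 nuclear subunits were called at 72 h (5.15% of all genes higher, 3.8% lower). In the CDK2 comparison mt-Atp6 (-0.18), mt-Co2 (-0.085), mt-Nd1 (-0.062) and mt-Nd3 (-0.029) reversed. In the larger pool alone the nuclear sums were 0.19, -0.18 and -0.12. There 8 subunits were called at 72 h (4.53% of all genes higher, 3.55% lower) and 1 for untreated mice (2.17%, 1.52%). The interaction gave 12 (11.3%, 10.3%). In the smaller alone 0 were called at 72 h (0.0968%, 0.116%) and 28 for the interaction (3.27%, 4.16%). Its interaction was -0.31 for the nuclear and 0.14 for the mitochondrially encoded sum. The mitochondrially encoded sum there was 0.16 from 48 h to 72 h. With cells thinned to equal depth the nuclear sums were -0.19, -0.15 (22 called, 8.9% of all genes higher and 9.31% lower) and 0.54, and the CDK2 mitochondrially encoded sum was -0.015. With paired B1-8hi receptors only, the nuclear sums were 0.16, -0.19 and -0.12 (16 called, 10.5% of all genes higher and 9.12% lower). With under 5% mitochondrial UMIs they were -0.20 and -0.15. Without a mitochondrial filter the mitochondrially encoded sums were 0.13 (48 h to 72 h) and 0.17 (interaction), and 2 nuclear subunits were called at 72 h (4.49% of all genes higher, 3.64% lower). Without a term for the pool 1 subunit was called at 72 h (1.06% of all genes higher, 1.07% lower) and 20 for the interaction (4.29%, 7.67%). The mitochondrially encoded sum from 48 h to 72 h was then 0.16. At 72 h DESeq2 called 10 (5.86% of all genes higher, 3.89% lower), no count filter 3 (2.5%, 2.23%), mt- genes left out of the totals 8 (4.93%, 3.77%), and leaving out the 0 h mouse 8 (5.15%, 4.03%). For untreated mice no count filter gave 1 (1.26%, 1.21%) and leaving out the 0 h mouse 1 (2.33%, 1.78%). The cause was not tested. Without the mouse as replicate block 79 subunits were called in the CDK2 comparison, as with the pairing (34% of all genes higher and 35.7% lower), and leaving out each mouse gave 79 to 79 (35.1% to 35.7% higher, 36.5% to 37.9% lower), with sums of 0.50 to 0.52 and 0.02 to 0.03. A change in the 8 members that were not tested, at 0 to 137 UMIs in the time course, was not detectable at these counts.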
